A study of Mus musculus with 8 samples.

Results

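Glucocorticoid receptor (GR) and FOXO1 binding was described around the starts of 6 genes that move bile acids and bile constituents through the hepatocyte or conjugate bile acids: Slc10a1, Slco1b2, Abcb11, Abcb4, Abcc2 and Baat. Overlapping peaks of the 6 GR ChIP-seq libraries were merged into 51431 sites, and 108 of these were centred within 50 kb of a start of the 6 genes (mm10, GENCODE M21). The FOXO1 list held 8068 regions, of which 22 lay in the same windows. The genes were 6 of 21938 protein-coding genes. They were chosen by name, with no cut on a measured value, but with earlier results of these data known.

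Bile acids are made from cholesterol in hepatocytes, conjugated to taurine or glycine, pumped into the canaliculus and taken back up from portal blood. Slc10a1 (NTCP) is the sodium-dependent importer of conjugated bile acids at the sinusoidal membrane, and Slco1b2 (OATP1B2) is a sodium-independent importer of bile acids and other organic anions. At the canalicular membrane, Abcb11 (BSEP) exports bile salts, Abcb4 (MDR2) moves phosphatidylcholine into bile, and Abcc2 (MRP2) exports conjugated organic anions. Baat is the enzyme that joins bile acids to taurine or glycine. GR is the nuclear receptor for glucocorticoids, and FOXO1 is a forkhead factor that insulin signalling keeps out of the nucleus.

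The libraries came from livers of adult male C57BL/6J mice, collected around the onset of the dark phase. The control group (ctrl., 2 GR libraries) ate regular chow without a set limit, in the final week only during the night, the second group (cal. res., 2 GR libraries) was kept under caloric restriction, and the third (CORT, 2 GR libraries) was fed at night as the controls were and given corticosterone. In the second group, food was likewise given at lights-off. FOXO1 was profiled in livers under caloric restriction only, as 2 libraries that the authors merged before peak calling, so that list had no replicate spread and no control-fed counterpart. All values are peak calls on bulk liver. They carry no expression, so the tissue could not be checked against marker genes, and binding in fewer cells and weaker binding in each cell cannot be told apart.

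The lists differed in length. After rows with the same interval were joined, ctrl. had 36234 and 12458 regions, cal. res. 22707 and 18747, and CORT 29473 and 39136. The read depth of each library was not analysed here. A site counted as held by a group if a peak was called in each of its libraries. Strength was given as the percentile of a peak's fold enrichment over background within its own list, where 100 is the strongest, because fold enrichments were not scaled to each other between libraries. Tests over libraries were exact permutation tests. With 2 libraries against 2 they cannot give a two-sided p below 0.333, and over all 3 groups not below 0.0667, so no difference below could pass 0.05. Adjusted over all sites, every p was 1. The library names were of one style for ctrl. 2 and both cal. res. libraries and of another for ctrl. 1 and both CORT libraries, so a difference between cal. res. and CORT cannot be told apart from one between these sets.

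The sequences given here show the DNA under the strongest receptor peaks. For each gene, 200 bases around the summit of the leading site are given, that is the site with the highest mean percentile over the 6 lists. A further pair of windows was added after their values were seen: the Abcb11 start, bound in all 6 libraries, and the one site bound in all 6 libraries that held a full glucocorticoid response element. All are mm10, plus strand, 5′ to 3′. Each distance is that of the centre of the merged site from the gene start, and the summit can lie elsewhere in the site. The summit of the Abcc2 site at 11.1 kb lay 10.5 kb downstream. Capitals mark matches, on either strand, to the motifs searched: the glucocorticoid response element (GNACA and TGTNC with 3 bases between them), the GR hexamer AGAACA, the nuclear receptor hexamer AGGTCA, the forkhead motif TGTTTAC, the C/EBP motif TTGCNNAA and the STAT motif TTCNNNGAA. An HNF4 motif and an FXR inverted repeat were searched as well and had no match in these windows.
Slc10a1, 7.52 kb upstream (chr12:80975986-80976185): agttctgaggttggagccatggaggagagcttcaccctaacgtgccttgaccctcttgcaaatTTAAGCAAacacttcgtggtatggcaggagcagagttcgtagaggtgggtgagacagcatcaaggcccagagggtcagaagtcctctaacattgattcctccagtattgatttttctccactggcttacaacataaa
Slco1b2, 14.1 kb upstream (chr6:141615416-141615615): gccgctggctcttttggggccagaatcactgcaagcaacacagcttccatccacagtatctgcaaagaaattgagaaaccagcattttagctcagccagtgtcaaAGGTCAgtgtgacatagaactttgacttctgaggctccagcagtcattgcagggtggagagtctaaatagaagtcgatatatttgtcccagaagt
Abcb11, 43.8 kb upstream (chr2:69386253-69386452): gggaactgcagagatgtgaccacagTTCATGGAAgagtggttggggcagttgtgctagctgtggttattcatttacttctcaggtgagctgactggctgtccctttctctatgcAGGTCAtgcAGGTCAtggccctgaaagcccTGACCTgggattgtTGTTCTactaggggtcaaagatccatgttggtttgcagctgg
Abcb11, start (chr2:69342732-69342931): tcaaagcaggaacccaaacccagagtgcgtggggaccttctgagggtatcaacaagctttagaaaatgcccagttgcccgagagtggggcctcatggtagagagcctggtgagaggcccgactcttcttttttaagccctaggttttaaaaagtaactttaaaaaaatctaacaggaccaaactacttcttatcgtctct
Abcb4, 35.0 kb downstream (chr5:8928576-8928775): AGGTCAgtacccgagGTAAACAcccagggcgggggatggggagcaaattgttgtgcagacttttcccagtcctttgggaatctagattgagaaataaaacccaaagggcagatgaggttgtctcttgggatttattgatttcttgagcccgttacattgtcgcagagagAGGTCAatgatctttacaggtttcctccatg
Abcc2, 11.1 kb downstream (chr19:43792563-43792762): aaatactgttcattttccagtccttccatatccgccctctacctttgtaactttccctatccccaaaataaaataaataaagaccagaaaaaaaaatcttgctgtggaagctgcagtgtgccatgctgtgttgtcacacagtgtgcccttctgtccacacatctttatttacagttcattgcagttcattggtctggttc
Abcc2, 49.0 kb downstream (chr19:43831329-43831528): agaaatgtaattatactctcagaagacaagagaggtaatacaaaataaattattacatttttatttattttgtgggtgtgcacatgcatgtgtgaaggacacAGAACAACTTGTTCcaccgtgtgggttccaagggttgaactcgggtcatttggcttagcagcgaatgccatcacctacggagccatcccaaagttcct
Baat, 20.6 kb downstream (chr4:49485508-49485707): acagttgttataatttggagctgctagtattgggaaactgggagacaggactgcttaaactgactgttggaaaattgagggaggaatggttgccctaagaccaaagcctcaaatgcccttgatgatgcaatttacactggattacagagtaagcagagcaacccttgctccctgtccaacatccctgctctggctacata

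The response element of Abcc2 overlapped an AGAACA hexamer in the same run of capitals, and it was the only full element in the windows shown. The Abcb11 window 43.8 kb upstream held 5 matches, 3 of them AGGTCA, beside a STAT motif and an AGAACA hexamer on the minus strand. The Abcb4 window held a forkhead motif on the minus strand next to one of 2 AGGTCA hexamers. The leading windows of Abcc2 and Baat and the Abcb11 start held no match to the motifs searched, which says only that these letters were not in the windows.

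Peaks at the 6 genes were common, and the share held by each group lay within a few points of that of all sites. Among the 108 sites, ctrl. held 25, against 21.4% of all sites. Cal. res. held 33, against 27.9% of all sites, and CORT held 42, against 43.7%. All 3 groups held 21 sites (15.7% of all sites), and no group held 63 (51.9%). Ctrl. 1 had peaks at 64 sites (67.6% of all sites) and ctrl. 2 at 25 (22.3%). The cal. res. libraries had peaks at 41 sites each (40.3% and 33.7% of all sites). CORT 1 had peaks at 48 sites (53.8%) and CORT 2 at 85 (73.6%). The counts followed the lengths of the lists, with the shortest list giving the fewest sites and the longest the most. Of the sites, 52 had a peak in 1 library only (37.4% of all sites), and 32 of these were seen in CORT 2 alone (16.9% of all sites).

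**Figure D1:**
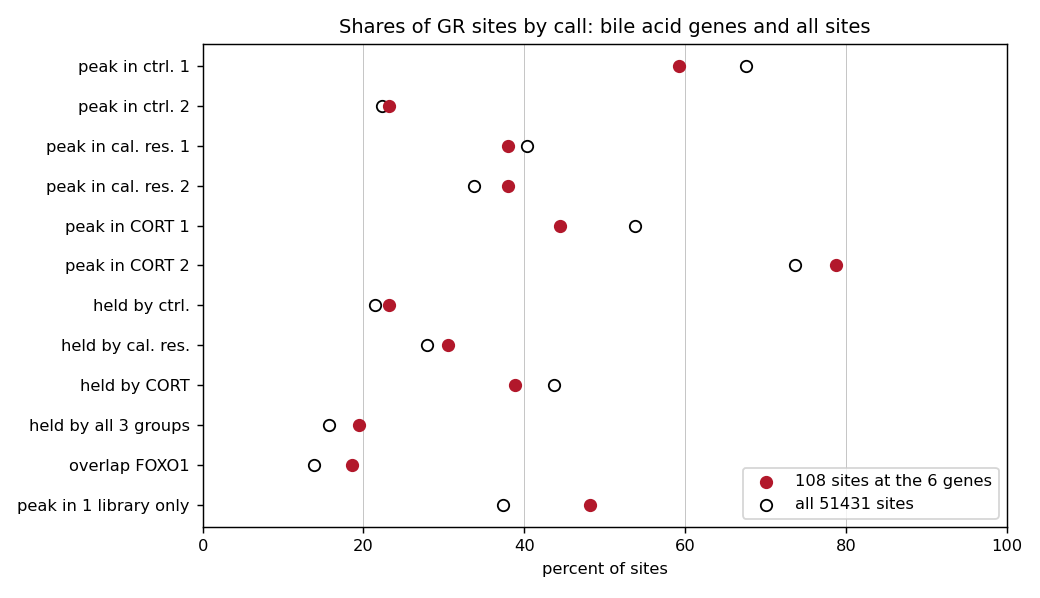
Percent of sites called by each rule on the x axis, for the 108 sites at the 6 genes (filled) and for all 51431 sites (open). The filled and open points lie close together in most rows, and among the 12 rows plotted the filled point is farthest to the right of the open one for sites with a peak in 1 library only.

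The windows were dense in sites. Abcc2 had 30 sites, Baat 20, Slco1b2 19, Slc10a1 18, Abcb4 13 and Abcb11 8. The median over the members was 18.5, and over all protein-coding genes 3. Abcc2 had more sites than 99.9% of genes, and Abcb11, the lowest of the 6, more than 78.3%. By sites held by ctrl., cal. res. and CORT, Abcc2 exceeded 97.7%, 98.8% and 97.9% of genes, and Abcb11 72.8%, 70.9% and 56.2%. Introns held 62 of the summits, intergenic sequence 36, untranslated exons 7 and coding exons 3. The share of all sites in each of these was not computed. The gene's own start was the nearest protein-coding start for 80 sites. At Abcb4 and Slco1b2 no other start lay in the window, while the Baat window held several, those of Acnat1, Mrpl50 and Zfp189 among them, and only 5 of its 20 sites were nearest to Baat.

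**Figure D2:**
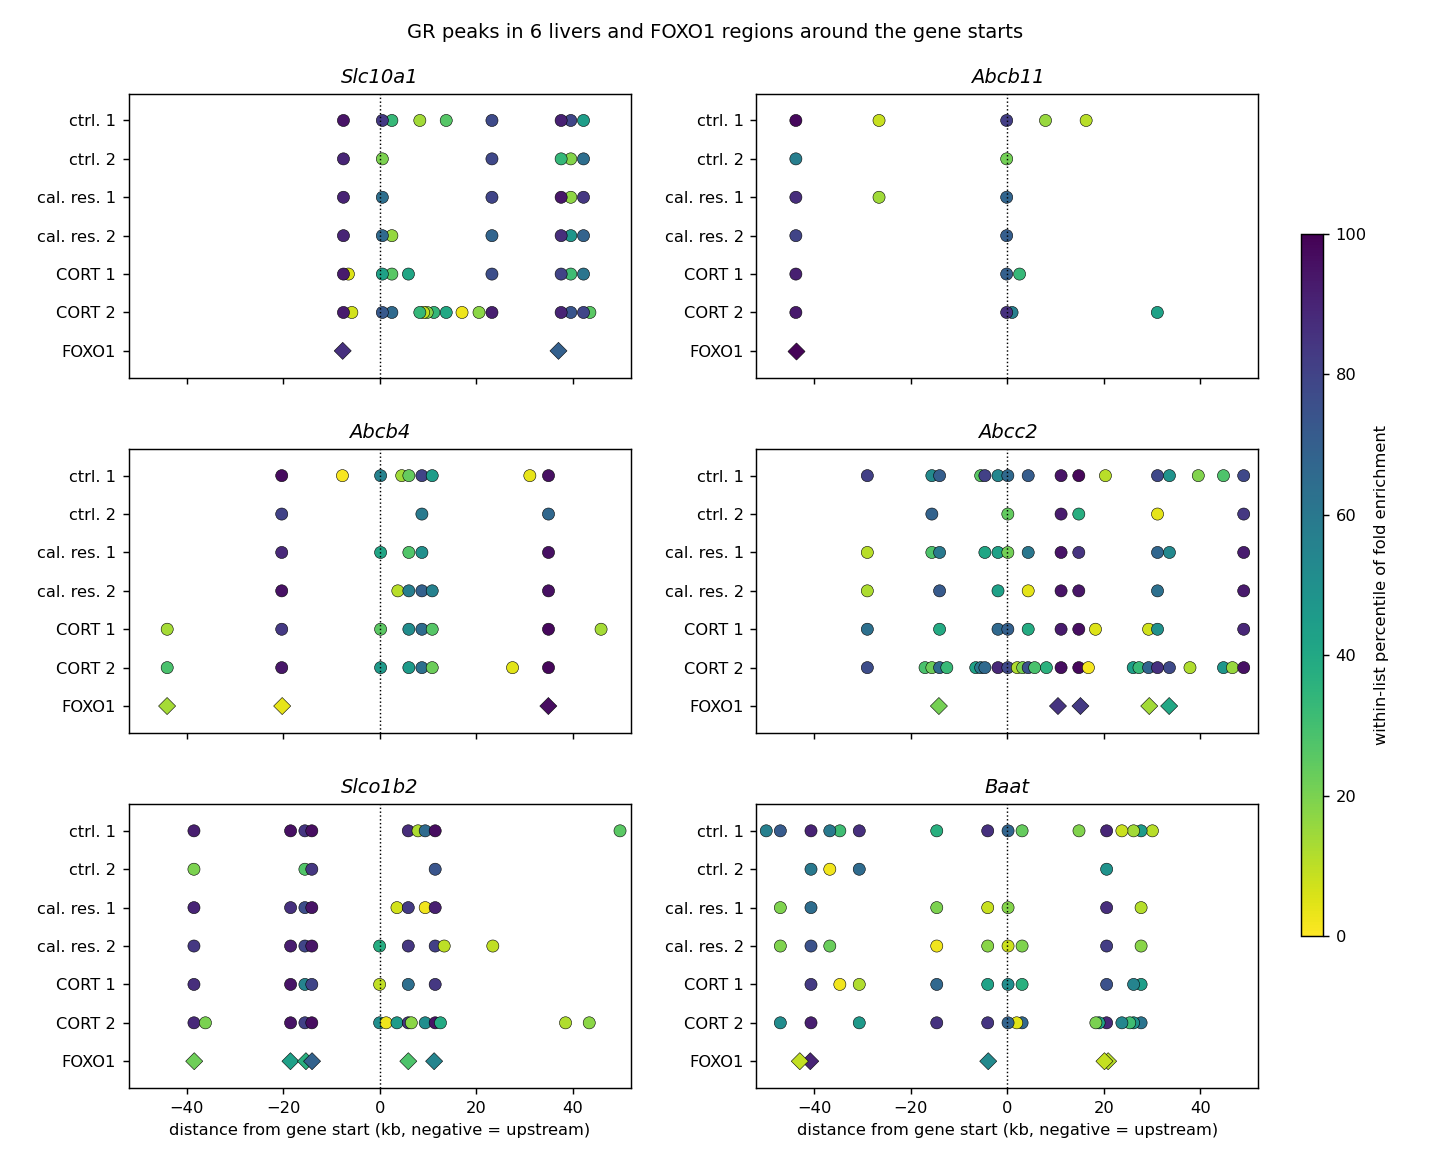
Each circle is a GR peak of one library (rows) and each diamond a FOXO1 region of the merged list, plotted by distance in kb from the gene start, with the colour giving the percentile of fold enrichment within the list. Columns of circles through all 6 rows are sites held by all 3 groups, such as that 7.52 kb upstream of Slc10a1 with its FOXO1 diamond, and the CORT 2 row holds the most circles, 85.

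The windows of the importers held a few strong sites bound in every library. Slc10a1 (chr12:80953183-80968705, minus strand) had its leading site 7.52 kb upstream, in intergenic sequence at chr12:80975569-80976877. Its percentiles were 94.7 and 89.5 in the ctrl. libraries, 90.3 and 90.0 in those of cal. res. and 92.6 and 92.8 in those of CORT. The ctrl. values enclosed the cal. res. values and those of CORT, so the site did not separate either treated group from the controls (exact permutation p = 1 for both). The fold enrichments there were 17.4 and 7.89 with ctrl. feeding, 14.4 and 11.6 with cal. res. and 18.8 and 17.7 with CORT. Ctrl. held 6 sites in the Slc10a1 window, cal. res. 6 and CORT 7, and the same 6 were held by all 3 groups. Among these, the sites 42.2, 39.6, 37.6 and 23.2 kb downstream lay nearest to the start of Srsf5. The last had its summit 0.079 kb from that start. The site 42.2 kb downstream was at 44.4 and 64.1 in the ctrl. livers, 83.9 and 68.4 in the cal. res. livers and 61.3 and 79.6 in the CORT livers. There both cal. res. values were above both ctrl. values, and the CORT values overlapped those of ctrl.

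At Slco1b2 (chr6:141629518-141686646, plus strand) the strong sites lay upstream and in the first part of the gene, and 6 of the 19 sites overlapped FOXO1. The leading site, 14.1 kb upstream at chr6:141615057-141615833, was at 96.3 and 84.1 in the ctrl. libraries, 94.7 and 94.2 in those of cal. res. and 79.6 and 96.8 in those of CORT. The CORT libraries spanned the values of both other groups (exact permutation p = 1 against each). The intronic site 11.5 kb downstream was at 96.5 and 73.7 with ctrl. feeding, 91.3 and 81.3 with cal. res. and 83.9 and 95.1 with CORT. A pair of FOXO1-bound sites, 18.5 kb upstream and 5.91 kb downstream, lacked a peak in ctrl. 2 only. The upstream one was at 96.1 in ctrl. 1, 86.0 and 91.8 in the cal. res. livers and 94.6 and 95.1 in the CORT livers, so the other control library was above all 4 treated libraries. Ctrl. held 4 sites, cal. res. 6 and CORT 7.

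Among the canalicular exporters, Abcb11 had the fewest sites and Abcc2 the most. Abcb11 (chr2:69238282-69342616, minus strand) had 2 sites held by all 3 groups, and no group held another. The stronger lay 43.8 kb upstream, in an intron of Dhrs9 at chr2:69385933-69386912, and it was at 98.0 and 57.5 in the ctrl. livers, 86.8 and 79.7 in the cal. res. livers and 91.3 and 93.0 in the CORT livers. The ctrl. libraries lay outside the range of all others, on either side. The FOXO1 region there, 108 bp from summit to summit, was the highest of the 22, with a fold enrichment of 23.9 and a percentile of 99.1. The other site, 0.139 kb upstream of the start, was at 82.0 and 21.4 in the ctrl. libraries, 67.9 and 70.6 in those of cal. res. and 69.6 and 86.0 in those of CORT, and had no FOXO1 region.

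Abcb4 (chr5:8893717-8959231, plus strand) was led by an intronic site 35.0 kb downstream, at chr5:8928350-8928997. It was at 95.9 and 66.7 with ctrl. feeding, 96.1 and 95.7 with cal. res. and 97.9 and 98.3 with CORT. Both CORT libraries were above all other libraries, and cal. res. 2 was just below ctrl. 1. The mean was 81.3 ± 20.6 (SD, n = 2) in ctrl., 95.9 ± 0.255 (n = 2) in cal. res. and 98.1 ± 0.258 (n = 2) in CORT, with exact permutation p = 0.667 for cal. res. and 0.333 for CORT against ctrl. FOXO1 was at a percentile of 96.6 there, with summits 21 bp apart. A second strong site 20.3 kb upstream was at 97.1 and 80.2 in the ctrl. livers, 88.6 and 95.4 in the cal. res. livers and 83.5 and 94.0 in the CORT livers, and its FOXO1 region was among the weakest of that list, at a percentile of 3.58. The start site, centred 0.180 kb downstream of the start, had percentiles of 56.2 in ctrl. 1, 41.4 in cal. res. 1, and 25.2 and 45.9 in the CORT livers, with no peak in ctrl. 2 or cal. res. 2. Its CORT values lay between those of the ctrl. libraries when no peak counts as 0. Ctrl. held 3 Abcb4 sites, cal. res. 4 and CORT 7. The site added in both treated groups lay 6.03 kb downstream in an intron, at 23.5 in ctrl. 1, no peak in ctrl. 2, 27.3 and 57.5 in the cal. res. livers and 51.6 and 45.3 in the CORT livers.

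Abcc2 (chr19:43782192-43840740, plus strand) carried its strongest sites inside the gene. The leading site 11.1 kb downstream, at chr19:43791109-43795527, was at 94.6 and 92.3 in the ctrl. libraries, 94.8 and 94.9 in those of cal. res. and 92.8 and 96.5 in those of CORT. It had the narrowest range of the 6 leading sites, and the cal. res. values were above both ctrl. values by a mean of 1.44 percentile points. That separation was lost when peaks were ranked by −log10 p, where ctrl. 1 was at 96.5 and the cal. res. libraries at 95.7 and 95.5, with a mean difference of 0.0453 points. Without ctrl. 2 the difference by fold enrichment was 0.287 points. The site 14.8 kb downstream was at 98.4 and 37.3 with ctrl. feeding, 85.0 and 94.2 with cal. res. and 96.3 and 98.0 with CORT, and the FOXO1 summit lay 2 bp from the GR summit. The site 49.0 kb downstream, which held the full response element, separated both treated groups from ctrl. It was at 78.2 and 83.8 in the ctrl. livers, 92.3 and 93.2 in the cal. res. livers and 89.4 and 95.3 in the CORT livers. All 4 treated libraries were above both controls, by a mean of 11.8 points in cal. res. and 11.4 points in CORT (exact permutation p = 0.333 for each, the smallest 2 against 2 libraries allow). It had no FOXO1 region. The 2 contrasts share the ctrl. libraries.

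The Abcc2 start went another way. The site centred 0.098 kb downstream of it was at 66.2 and 23.9 in the ctrl. libraries, 21.1 and no peak in those of cal. res. and 69.9 and 78.3 in those of CORT. Cal. res. was lowest, ctrl. between and CORT highest, with no overlap. The exact permutation p over the 3 groups was 0.0667, the smallest it can take. The ctrl. library at 66.2 shared its name style with CORT and lay near the CORT values. That at 23.9 shared its style with cal. res. and lay near 21.1. This order of groups thus cannot be told apart from a difference between the sets of library names. Over all sites, 26.2% had both cal. res. percentiles below both CORT percentiles. The share of all sites at this p is not reported here. The site 15.6 kb upstream, in an intron of Cutc, was at 52.7 and 68.5 with ctrl. feeding, 28.0 and no peak with cal. res. and no peak and 22.4 with CORT, so both treated groups were below the controls there. Ctrl. held 6 Abcc2 sites, cal. res. 8 and CORT 10.

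Baat (chr4:49489422-49506557, minus strand) had the weakest leading site of the 6. It lay 20.6 kb downstream of the start, past the gene's end and nearer to the start of Acnat1, at chr4:49485200-49486784. Its percentiles were 89.2 and 48.7 in the ctrl. livers, 87.1 and 82.4 in the cal. res. livers and 75.3 and 88.9 in the CORT livers, and the ctrl. libraries enclosed the other 4 values. Some weaker sites in the Baat window were bound in both treated groups but only in ctrl. 1 of the controls. The site at the start was at 67.7 in ctrl. 1, 18.5 and 7.54 in the cal. res. livers and 51.1 and 68.2 in the CORT livers. The site 14.6 kb upstream had its summit 0.035 kb from the start of Zfp189. It was at 37.0 in ctrl. 1, 19.8 and 2.33 in the cal. res. livers and 66.5 and 85.4 in the CORT livers. At both sites, cal. res. was below CORT and ctrl. 1 and above ctrl. 2, which had no peak. Over all sites, 26.2% had both cal. res. percentiles below both CORT percentiles. The difference from CORT cannot be told apart from one between the sets of library names. Ctrl. held 4 sites, cal. res. 7 and CORT 9.

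**Figure D3:**
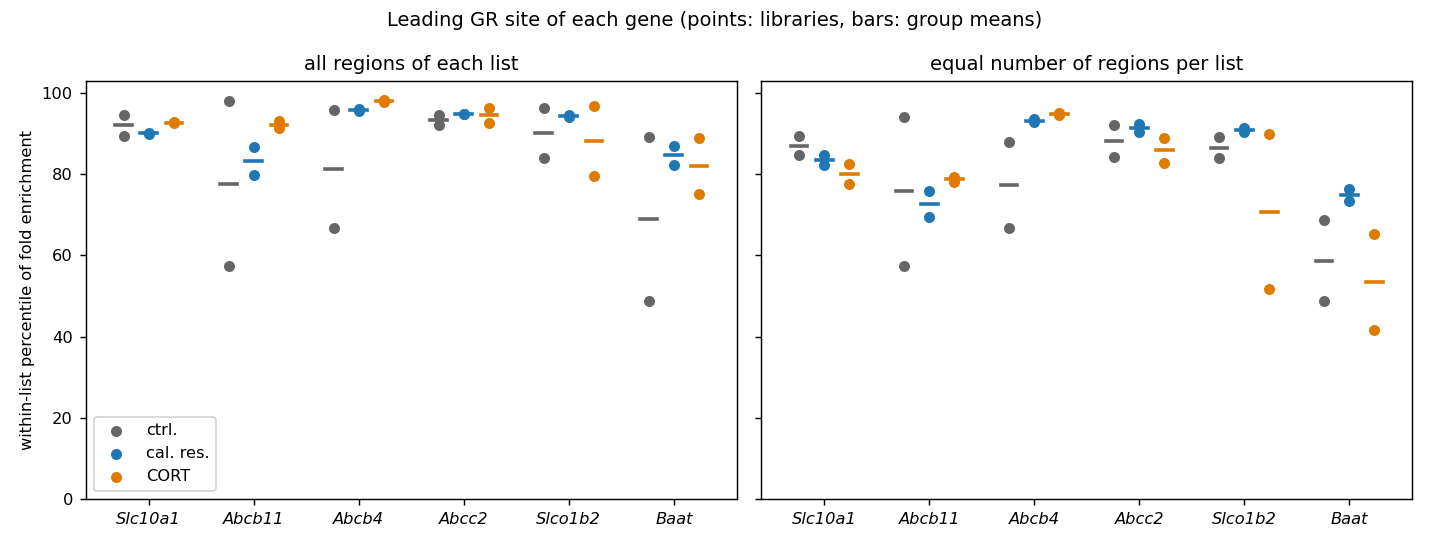
Percentile of fold enrichment within the list (y axis) at the leading site of each gene, with points for libraries and bars for group means, from all regions of each list (left) and from an equal number of regions with the lowest p, 12458 per list (right). The ctrl. points of Abcb11, Abcb4 and Baat lie far apart, while both cal. res. points lie within a few points of each other at 5 of the 6 genes.

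Caloric restriction was compared with control feeding over all 108 sites. Cal. res. held 12 sites that ctrl. did not, against 11.5% of all sites: 4 at Abcc2, 5 at Baat, 2 at Slco1b2 and 1 at Abcb4. All 12 had a peak in ctrl. 1 and lacked one only in the short list of ctrl. 2. Over all 5923 sites that cal. res. held and ctrl. did not, 91.8% had a peak in ctrl. 1. Ctrl. held 4 sites that cal. res. did not (4.99% of all sites). Both cal. res. percentiles were above both ctrl. percentiles at 4 sites (4.65% of all sites), at Slc10a1, Abcb4 and, at 2 sites, Abcc2. They were below both at 3 sites (6.86% of all sites), of which 2, at the Abcc2 start and 15.6 kb upstream of it, are described above. At the 6 leading sites the median difference, cal. res. minus ctrl., was 4.93 points, and without ctrl. 2 it was -3.13 points.

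Corticosterone was compared with the same control libraries. The labels do not say whether those control mice were given a vehicle, so corticosterone and the way it was given cannot be told apart in this contrast. CORT held 19 sites that ctrl. did not (24.3% of all sites). Of these, 16 had a peak in ctrl. 1, against 81.0% of all 12522 sites added in the same way. The other 3 had a peak in neither control library (4.72% of all sites for either treated group). Those 3 lay 44.0 kb upstream of Abcb4, 29.3 kb downstream of Abcc2 and at the Slco1b2 start. The summit of the Abcb4 site was in a coding exon of Abcb1b. The CORT percentiles were 13.5 and 28.9 at the Abcb4 site, 7.31 and 68.2 at the Abcc2 site and 9.50 and 50.6 at the Slco1b2 start. Ctrl. held 2 sites that CORT did not (2.05% of all sites). Both CORT percentiles were above both ctrl. percentiles at 11 sites (16.1% of all sites), 4 at Abcc2, 3 each at Abcb4 and Baat and 1 at Slco1b2, with none at Slc10a1 or Abcb11. They were below both at 3 sites (1.82% of all sites), 1 at Abcc2 and 2 at Baat. The median difference at the leading sites, CORT minus ctrl., was 7.18 points, and it was -3.82 points when the same number of regions, those of lowest p, was taken from each list.

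Between the treated groups, CORT held 10 sites that cal. res. did not (18.8% of all sites), and cal. res. held 1 that CORT did not (3.04% of all sites), 47.0 kb upstream of Baat. Both groups held the other 11 sites that cal. res. added to ctrl. At no site were both cal. res. percentiles above both CORT percentiles, against 3.25% of all sites. They were below both at 19 sites (26.2% of all sites), 8 of them at Baat. With an equal number of regions per list, CORT held 22 sites instead of 42. On that scale ctrl., cal. res. and CORT held 4, 5 and 6 sites at Abcc2, 4, 6 and 5 at Slco1b2, and 3, 2 and 3 at Baat.

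**Figure D4:**
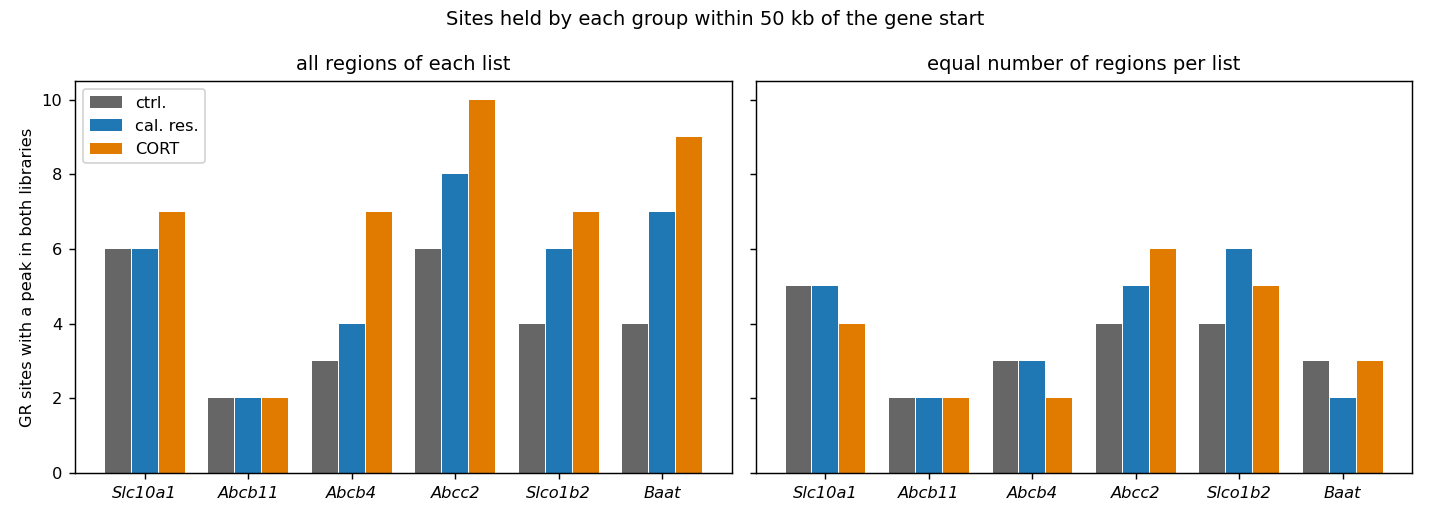
Number of sites with a peak in both libraries of a group (y axis) at each gene, from all regions of each list (left) and from the 12458 regions of lowest p in each list (right). On the left CORT holds 10 sites at Abcc2 and 9 at Baat against 6 and 4 in ctrl., and on the right the 3 groups differ by at most 2 sites at any gene.

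All 6 gene starts had a GR site centred within 1 kb, with 7 such sites in all. The share of all genes with one was not computed. Abcb11 had a further site 0.975 kb downstream, seen in CORT 2 alone. Of the 7, CORT held 6, against 64.4% of all sites that near a protein-coding start. Ctrl. held 3 (41.4%) and cal. res. held 3 (35.0%). All 3 groups held the sites nearest the starts of Slc10a1 and Abcb11. The Slc10a1 start site was at 83.4 and 19.6 in the ctrl. libraries, 64.0 and 66.0 in those of cal. res. and 43.0 and 72.6 in those of CORT. At Slco1b2 neither control library had a peak, cal. res. had one in 1 library at 37.7, and CORT was at 9.50 and 50.6. None of the 7 sites overlapped a FOXO1 region, against 13.0% of all sites near a start that did.

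FOXO1 overlapped the leading GR site of every gene, each held by all 3 groups, against 50.7% of all sites held by all 3 groups. The share at the leading sites of other genes was not computed. It overlapped none of the start sites, against 13.0% of all sites near a start. All 22 FOXO1 regions overlapped a GR site of at least 1 library, as did 93.6% of all FOXO1 regions. Sites held by ctrl. covered 15 of them (60.1% of all FOXO1 regions), sites held by cal. res. 19 (76.0%) and sites held by CORT 21 (81.4%). In turn 20 of the 108 GR sites overlapped FOXO1, against 13.9% of all sites, with 6 at Slco1b2, 5 at Abcc2, 3 each at Abcb4 and Baat, 2 at Slc10a1 and 1 at Abcb11. At the leading sites the FOXO1 percentiles were 99.1 at Abcb11, 96.6 at Abcb4, 86.0 at Slc10a1, 85.0 at Abcc2, 69.1 at Slco1b2 and 10.6 at Baat. Abcb11, first of the 6 by FOXO1, had a mean GR percentile over the 6 lists of 84.4, below all leading sites but that of Baat (78.6). The Baat leading site had the lowest FOXO1 percentile of the 6, but it was not where FOXO1 was strongest in the Baat window. Abcc2 was first by GR, at 94.3. Over all 22 regions, 12 were below the middle of the FOXO1 list.

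Shares held by all 3 groups differed with FOXO1 at these genes about as they did over all sites. All 3 groups held 13 of the 20 sites with FOXO1 (65%), against 57.5% of all FOXO1-overlapping sites. They held 8 of the 88 without FOXO1 (9.09%), against 9.01% of all sites without it. Counted the other way, 13 of the 21 sites held by all 3 groups overlapped FOXO1, against 50.7% of all such sites. The median length was 1033 bp with FOXO1 and 502.5 bp without, and longer sites have more room for an overlap, whose part in this was not tested.

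The shares of sites with each motif lay near those of all sites. The full response element was in 2 of 108 windows of 200 bases, both at Abcc2, against 1.89% of all sites. Its other match lay 2.07 kb downstream, in a coding exon, at a site seen in CORT 2 alone. AGAACA, which can lie inside the full element, was in 20 windows (18.4% of all sites), AGGTCA in 17 (20.9%), TTGCNNAA in 15 (15.1%), TTCNNNGAA in 11 (8.16%) and TGTTTAC in 5 (5.19%). The HNF4 motif CAAAGTCCA was in 1 window, at the Abcb4 start (1.47% of all sites), and the inverted repeat of AGGTCA and TGACCT with 1 base between them, the element of the bile acid receptor FXR, was in none (0.0253%). Of the 20 windows with FOXO1, 2 held the forkhead motif, against 13.9% of all FOXO1-overlapping sites.

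The other genes of the pathway were taken from a list of 35: 14 for synthesis, 12 for transport and 9 regulators. All 35 had a GR site within 50 kb (73.2% of protein-coding genes). Sites held by ctrl. were found at 33 (48.6%), by cal. res. at 33 (47.2%), by CORT at 34 (60.9%), and a FOXO1 region at 28 (33.3%). More sites were held by cal. res. than by ctrl. at 20 of the 35 (20.6% of all genes) and fewer at 8 (15.8%). More were held by CORT than by ctrl. at 29 (46.5%) and fewer at 4 (3.25%). The listed genes had a median of 11 GR sites, against 3 over all protein-coding genes. Genes with more sites have more room for a difference either way, and these shares were not matched for it. Abcg5 and Abcg8 lie in each other's windows and were counted separately. Cyp7a1, the rate-limiting enzyme of bile acid synthesis, had 5 sites held by ctrl., 6 by cal. res. and 8 by CORT. Cyp8b1, which directs synthesis towards cholic acid, had 7, 9 and 9, and Nr0b2 (SHP), a repressor of bile acid synthesis, had 5, 7 and 8. Slc51b, a subunit of the basolateral exporter, had a held site in CORT only, 3 of them, and Abcg2, an exporter of organic anions, had 1 in ctrl. and none in the others. These counts rest on the same lists of unequal length. The windows of Cyp8b1, Nr0b2 and Slc51b held 2, 5 and 4 other protein-coding starts, and sites were not divided between genes.

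Genes elsewhere whose strongest percentiles over the 6 lists were nearest to those of each member were found by distance over the 6 values, as a description. Only genes with a FOXO1 region within 50 kb, as every member had, were searched. They were 1700016H13Rik for Slc10a1 (2.47 points), Dpm2 for Abcb11 (5.70 points), Ackr2 for Abcb4 (1.67 points), Serpina1d for Abcc2 (1.56 points), Gm20425 for Slco1b2 (2.47 points) and Dhrs7 for Baat (4.43 points). Neighbouring genes share sites, so Ackr2 and Higd1a were equally near to Abcb4. The start of Ackr2 lies in the window of Cyp8b1, a gene of the pathway list.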

How the data were processed

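GR and FOXO1 ChIP-seq peak lists of mouse liver were used as deposited. Per the study's methods and processing notes, the authors aligned reads with BWA to mm10, removed duplicates and called peaks with MACS2. Each deposited list gives the fold enrichment over background (a ratio), the −log10 p-value and the −log10 q-value of every peak. GR peaks were called per library and FOXO1 peaks on 2 merged libraries. The largest q was 0.0998 in the GR lists and 9.84e-06 in the FOXO1 list. Depth per library was not analysed here.

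Rows with one interval were reduced to the strongest summit. GR regions of the 6 lists that overlapped by at least 1 bp were merged into sites. Percentiles are ranks of fold enrichment within a list, and a missing peak counts as 0 in tests. Sites and FOXO1 regions were assigned by centre within 50 kb of the GENCODE M21 gene start. Tests were two-sided exact permutation tests over libraries, adjusted by Benjamini-Hochberg over all sites, and were tested on simulated data. The study's methods call the replicates biological, but the labels do not tie libraries to animals, and p-values measure the spread between these libraries. Motifs were searched in 200 bases around summits of the GRCm38.p6 sequence. For every member, the leading site, the site nearest the start and the site of the strongest FOXO1 region were described, and other sites where groups separated or were added. Some sites in the Baat window, that of its strongest FOXO1 region included, are counted but not reported singly here. Members, lists and motifs were chosen with earlier results of these data known. Work was done in Python 3.11.15 with pandas 2.3.3, pysam 0.24.0, NumPy 2.4.6, SciPy 1.17.1 and matplotlib 3.10.9.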

Additional observations from a re-analysis of the deposited data

How the results depend on the processing

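The counts of sites followed the length of the lists and the window. In any library there were 108 sites, 55 at a q of at most 1e-05, 41 with lists cut to equal length by p, 70 within 25 kb and 169 as chains of summits at most 100 bp apart. Ctrl. held 25, then 13 at a q of at most 1e-05, 14 within 25 kb and 64 through either library. Cal. res. held 33, and 21 within 25 kb. CORT held 42, then 22 with lists of equal length, 27 within 25 kb and 91 through either library. FOXO1 overlapped 20, then 12 within 25 kb and 10 for the stronger 50% of its regions. Leaving out each library in turn gave 85 to 108 sites in any library, 25 to 64 held by ctrl. (64 without ctrl. 2), 33 to 41 by cal. res., 42 to 85 by CORT (85 without CORT 1) and 20 to 21 with FOXO1. The median difference at the leading sites, cal. res. minus ctrl., was 4.93 points, 17.8 at a q of at most 1e-05 and 18.1 within one style of library name, with -3.13 to 18.1 when each library was left out. CORT minus ctrl. was 7.18, then -3.82 with lists of equal length and -3.91 within one name style, with -3.91 to 17.8 over left-out libraries. Cal. res. minus CORT was -0.991, then 4.57 with lists of equal length, with -2.56 to 0.0206 over left-out libraries.

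At single leading sites the sign turned as follows. With lists of equal length, cal. res. minus ctrl. was -3.07 at Abcb11, CORT minus ctrl. was -7.08 at Slc10a1, -2.34 at Abcc2 and -5.31 at Baat, and cal. res. minus CORT was 3.59 at Slc10a1. Within one name style, cal. res. minus ctrl. was 0.613 at Slc10a1, and CORT minus ctrl. was -2.00 at Slc10a1, -5.81 at Abcb11 and -7.13 at Baat. CORT minus ctrl. was -0.343 at Abcc2 when ranked by −log10 p and 0.933 at Slco1b2 at a q of at most 1e-05. Over left-out libraries, cal. res. minus ctrl. ran from -4.60 to 0.613 at Slc10a1, -14.7 to 25.8 at Abcb11, -1.78 to 10.4 at Slco1b2 and -4.48 to 36.1 at Baat. CORT minus ctrl. ran from -2.00 to 3.21 at Slc10a1, -5.81 to 34.7 at Abcb11, -0.638 to 3.04 at Abcc2, -10.6 to 6.60 at Slco1b2 and -7.13 to 33.4 at Baat. Cal. res. minus CORT ran from -1.60 to 2.08 at Abcc2, -2.29 to 14.9 at Slco1b2 and -4.18 to 9.48 at Baat. The causes were not tested.

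Deviations from the group mean were compared between libraries of the same replicate number. Over the 108 sites, r was 0.0785 for ctrl. and cal. res., -0.17 for ctrl. and CORT and -0.228 for cal. res. and CORT. A missing peak counted as 0, so these deviations also depend on list length and cannot show whether the numbers pair the libraries. The replicate block left the differences as they were (4.93, 7.18 and -0.991) and its smallest possible p was 0.5.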
